A study of Sus scrofa with 14 samples.

Results

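Of the genes that carry steroid synthesis and conversion, 7 were followed here in pregnant pig uterus: the enzyme genes CYP17A1, CYP19A1, CYP19A3, HSD17B7, HSD11B1 and AKR1C1 and the lipoprotein receptor gene SCARB1. They were the members out of 6765 named genes on the array, and every probe set annotated to a single one of them was taken, which gave 17 probe sets among 23999 tested. CYP17A1, CYP19A1 and CYP19A3 were set down as conceptus genes (13 probe sets) and HSD17B7, HSD11B1, AKR1C1 and SCARB1 as uterine genes (4 probe sets). Where a gene has several probe sets they are lettered from the brightest down (CYP19A1-a to CYP19A1-d, CYP19A3-a to CYP19A3-h), and the plot of differences gives their identifiers. The samples were uterus of 5 high prolificacy and 9 low prolificacy sows. All 14 were F2 animals of an Iberian by Meishan cross at days 30 to 32 of the fifth pregnancy, with an Affymetrix porcine array for each sow. The labels name neither the layer of the uterine wall nor the distance from a conceptus, so a sample can hold conceptus membranes as well as maternal tissue. Levels are log2 values from RMA, a summary of the probes of each set, and every difference is high minus low prolificacy. In bulk tissue of this kind, fewer cells of a type and less RNA per cell cannot be told apart.

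Steroid hormones are made from cholesterol. SCARB1 brings cholesterol esters into cells from high-density lipoprotein, STAR carries cholesterol into mitochondria, CYP11A1 cuts it to pregnenolone, HSD3B1 turns pregnenolone into progesterone, CYP17A1 leads on to androgens, and the aromatases of the CYP19 family turn androgens into estrogens. The pig carries neighbouring aromatase genes that are known as the gonadal (CYP19A1), placental (CYP19A2) and embryonic (CYP19A3) forms, and estrogen released by the pig conceptus is a signal of early pregnancy. On the maternal side, HSD11B1 regenerates active glucocorticoid from its inactive form, AKR1C1 reduces progesterone to a weaker metabolite, and HSD17B7 makes estradiol from estrone and also serves a step of cholesterol synthesis.

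The 4 uterine genes were higher in high prolificacy sows. None of the 13 conceptus probe sets was called in either direction (1 of them, CYP19A3-b, at an unadjusted limma p under 0.05). Of these 13, 12 averaged under the lowest array median of 5.72, against 1 of the 4 uterine probe sets. Without detection calls it is not known which of them were above background. In limma, with p-values adjusted over all 23999 probe sets, 4 of the 17 probe sets passed 0.05, all of them higher, where 7.85% of all probe sets were called, 3.50% higher and 4.35% lower. In 2 of the 17 all high arrays lay above all low arrays, where this held for 0.904% of all probe sets, and in none did all lie below, where this held for 1.74%. The median difference was 1.18 over the uterine probe sets and -0.013 over the conceptus probe sets, beside 0.039 over all probe sets. The members were chosen with earlier results of these data known, so these shares do not measure how unusual they are.

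**Figure D1:**
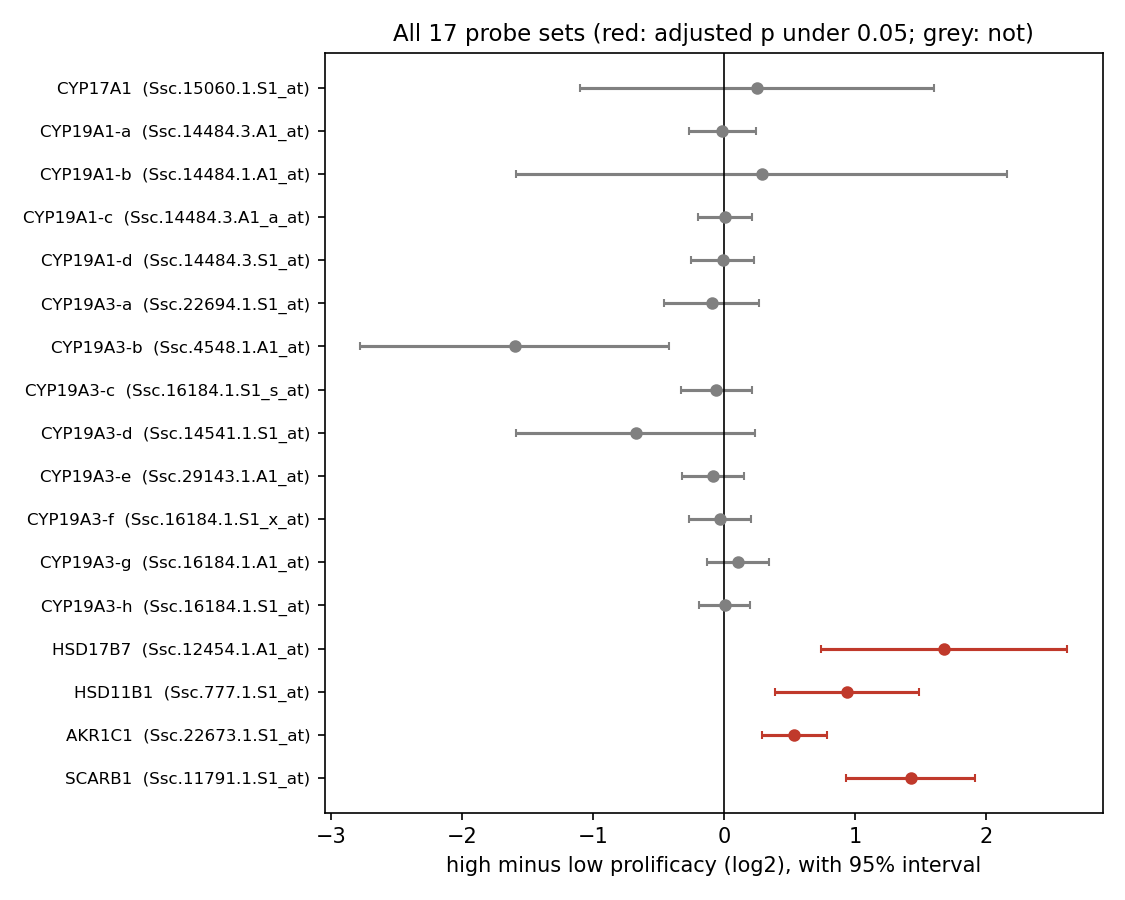
Difference in log2 level, high minus low prolificacy, of each of the 17 probe sets, with limma's 95% interval (5 high and 9 low arrays). The 4 uterine probe sets, in red, lie to the right of 0, the aromatase probe set CYP19A3-b lies furthest to the left at -1.60, and 2 conceptus probe sets (CYP17A1 and 1 of CYP19A1) have wide intervals around 0.

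SCARB1, the receptor that takes up cholesterol esters, had levels of 8.21, 9.09, 9.24, 8.74 and 9.18 in the high prolificacy arrays, against a lowest level of 6.80, a median of 7.36 and a highest of 8.11 in the low prolificacy arrays. The groups did not overlap, and the narrowest gap was that between high 1 and low 5. SCARB1 averaged 8.89 ± 0.43 in the high arrays and 7.47 ± 0.43 in the low arrays (SD, n = 5 and n = 9), which differ by 1.42 ± 0.23 (SE) or 2.68-fold, with a limma adjusted p of 0.00257.

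HSD17B7, the estradiol-forming and cholesterol-synthesis enzyme, was at 8.80, 10.02, 9.56, 8.47 and 9.21 in the high arrays, against 6.26 (lowest), 7.75 (median) and 8.70 (highest) in the low arrays. The groups overlapped at their edges, where low 5 (8.66) and low 8 (8.70) exceeded high 4. Low 6, low 7 and low 9, at 6.44, 6.26 and 6.36, stood below the other low arrays, the lowest of which was low 3 at 7.59. HSD17B7 averaged 9.21 ± 0.61 in the high arrays and 7.53 ± 0.96 in the low arrays (SD, n = 5 and n = 9), which differ by 1.68 ± 0.44 (SE) or 3.21-fold (limma adjusted p = 0.0296).

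HSD11B1, the glucocorticoid-regenerating enzyme, was at 8.19, 9.37, 10.03, 9.16 and 8.81 in the high arrays, against 7.62 (lowest), 8.07 (median) and 8.69 (highest) in the low arrays. High 1 lay inside the low range and the other high arrays lay above it. The difference was 0.94 ± 0.26 (SE), or 1.92-fold, with averages of 9.11 ± 0.68 in the high arrays and 8.18 ± 0.36 in the low arrays (SD, n = 5 and n = 9; limma adjusted p = 0.0383).

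AKR1C1, the progesterone-reducing enzyme, was at 4.25, 4.32, 4.31, 4.06 and 4.02 in the high arrays, against 3.39 (lowest), 3.66 (median) and 3.95 (highest) in the low arrays. The groups did not overlap, but the shift was the smallest of the 4, at 0.54 ± 0.12 (SE) or 1.45-fold (limma adjusted p = 0.0120). Its mean level of 3.85 lay under the lowest array median of 5.72, and without detection calls it is not known whether the probe set was above background in either group. The gene table holds 2 genes of this symbol, near each other, and whether the probes tell them apart was not tested.

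**Figure D2:**
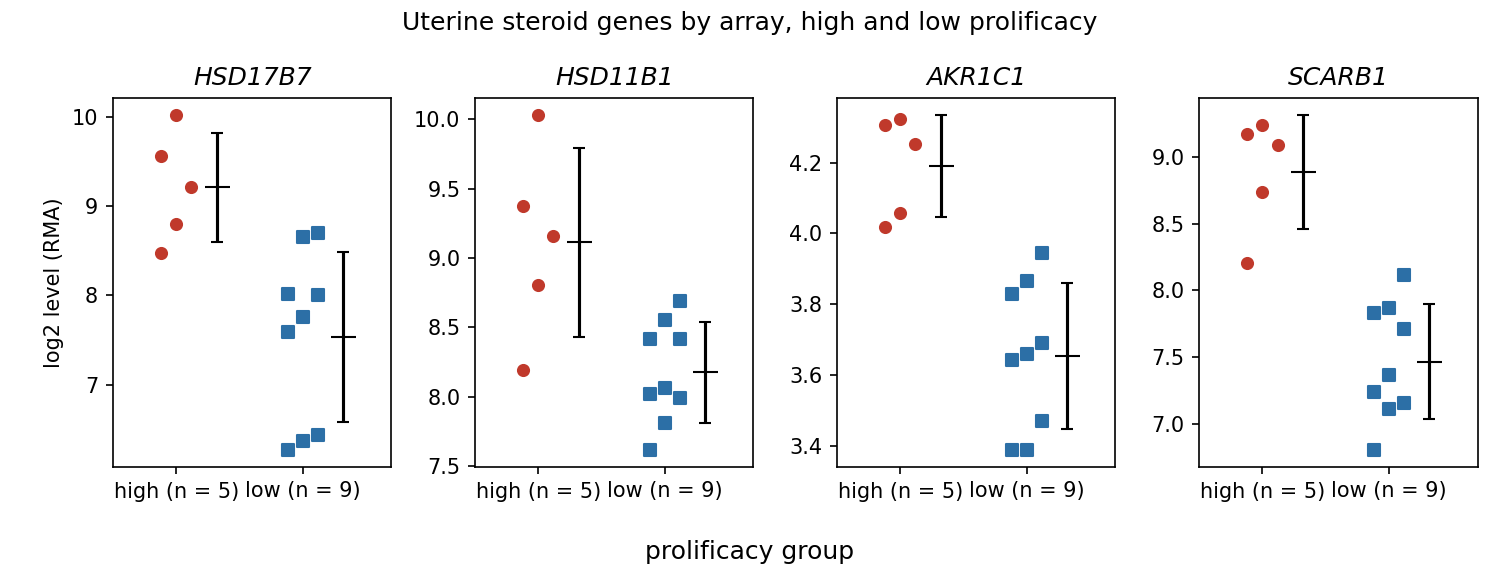
Log2 levels of the 4 uterine genes in each array, high prolificacy (red circles, n = 5) left of low prolificacy (blue squares, n = 9), each with its group mean and SD in black. SCARB1 and AKR1C1 do not overlap between groups, HSD17B7 and HSD11B1 do, and 3 low arrays stand apart at the bottom of the HSD17B7 panel.

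The 4 calls differed in how far they rested on single arrays. The calls of SCARB1 and AKR1C1 held whichever of the 14 arrays was left out (limma adjusted p at most 0.0121 and 0.0451). That of HSD17B7 was lost without high 2, high 3, high 5 or low 6 (adjusted p up to 0.0975), and that of HSD11B1 without any high array other than high 1 and also without low 1, low 6, low 7 or low 9 (adjusted p up to 0.120).

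Marker genes of tissue make-up moved with the same groups. Of 15 uterine epithelium genes on the array 9 were higher and none lower in high prolificacy. Of 12 smooth muscle genes none was higher and all were lower. Over all genes, 5.34% were called higher and 5.42% lower. The marker lists were chosen with earlier results of these data known. The epithelial keratin gene KRT18 lay between 9.76 and 11.49 in the high arrays and between 6.59 and 9.46 in the low arrays, and the smooth muscle actin gene ACTA2 between 9.84 and 12.82 in the high arrays and between 13.27 and 13.71 in the low arrays. The mean of the epithelium genes, each centred on its own average, ran between 0.66 and 1.69 in the high arrays and between -2.56 and 0.22 in the low arrays. The smooth muscle mean ran between -3.79 and -0.011 in the high arrays and between 0.84 and 1.85 in the low arrays. Within the low group, the epithelium mean was lowest in low 7 (-2.56), low 9 (-2.25) and low 6 (-0.85), the same 3 arrays in which HSD17B7 stood apart, and the remaining low arrays lay between -0.30 and 0.22. High 1, whose HSD11B1 and SCARB1 levels were the lowest of the high arrays, had the highest smooth muscle mean of that group at -0.011.

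With the smooth muscle mean as a covariate in limma, the differences (± SE) were 0.16 ± 0.44 for SCARB1, 0.091 ± 1.00 for HSD17B7, -0.87 ± 0.37 for HSD11B1 and 0.48 ± 0.29 for AKR1C1. With the epithelium mean they were 0.82 ± 0.28 for SCARB1, 0.14 ± 0.39 for HSD17B7, 0.37 ± 0.34 for HSD11B1 and 0.45 ± 0.18 for AKR1C1. None of the 4 was called in either fit. A lost call here does not show that a difference was gone. With the epithelium mean, AKR1C1 moved little from 0.54, while its SE rose from 0.12 to 0.18. The 2 means together accounted for 83.2% of the variation in group, so that prolificacy and tissue make-up can hardly be told apart in these samples. Leaving out low 7 and low 9 kept SCARB1 (1.33, limma adjusted p = 0.0107) and AKR1C1 (0.51, adjusted p = 0.0423) but not HSD17B7 (1.33, adjusted p = 0.0683) or HSD11B1 (0.84, adjusted p = 0.112).

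**Figure D3:**
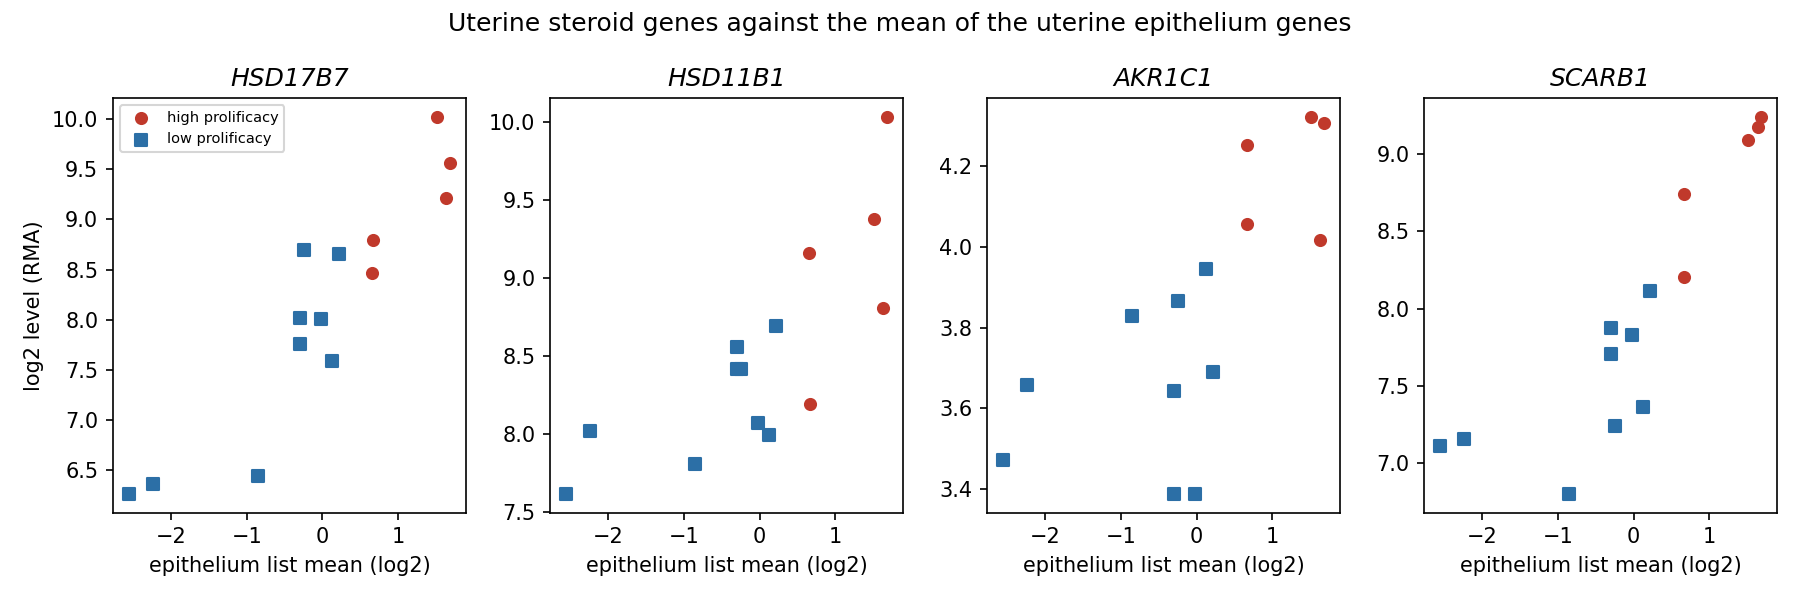
Log2 level of each uterine gene (vertical axis) against the mean centred log2 level of 15 uterine epithelium genes (horizontal axis) in the 14 arrays, high prolificacy as red circles and low prolificacy as blue squares. The 3 low arrays with the lowest epithelium means are those with the lowest HSD17B7 levels, and AKR1C1 shows little order within either group.

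The genes whose pattern over the 14 arrays was most like that of each uterine gene were listed by Pearson's r, as a description. For SCARB1 they were LGALS9 (0.979), which encodes galectin-9, CIAPIN1 (0.963) and MCRIP2 (0.961). For HSD17B7 they were SGK1 (0.965), a kinase that responds to glucocorticoids and mineralocorticoids, the chemokine gene CXCL16 (0.961) and the mitochondrial creatine kinase gene CKMT1A (0.955). For HSD11B1 they were PHF11 (0.935), DAP3 (0.920) and the lysosomal sulfatase gene GALNS (0.919), and for AKR1C1 PTCD3 (0.911), UMAD1 (0.886) and NUDT2 (0.851). Of these 12 genes, NUDT2 was the exception that was not called in limma (adjusted p = 0.0826). The 12 were picked by r over all 14 arrays with genes that differ between groups, so their calls say little beyond that choice. Within the low arrays alone, r ran from 0.659 (DAP3 with HSD11B1) to 0.936 (SGK1 with HSD17B7).

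PAG6, a pregnancy-associated glycoprotein made by trophoblast, served as the marker of trophoblast. Its level was 10.74, 3.86, 4.33, 11.43 and 6.21 in the high arrays, against 3.60 (lowest), 5.24 (median) and 10.89 (highest) in the low arrays. High 1, high 4 and low 4 were above 10, and low 5 followed at 8.74. The groups overlapped over nearly the whole range, and PAG6 differed by 1.06 ± 1.49 (SE, limma adjusted p = 0.765). None of the 8 trophoblast genes and none of the 9 fetal plasma protein genes on the array was called in limma (1 and 3 at an unadjusted p under 0.05). Over all genes, 5.34% were called higher and 5.42% lower. The fetal plasma protein mean did not follow PAG6 in every array. It was highest in high 4 (3.46) and was 1.68 in low 5. But it was -0.29 in low 4 and 1.25 in low 2, whose PAG6 level was 4.87.

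CYP17A1, the enzyme that opens the way to androgens, was at 4.92, 4.47, 4.38, 9.05 and 5.37 in the high arrays, against 4.68 (lowest), 5.09 (median) and 6.51 (highest) in the low arrays. High 4 stood far above all others, and low 4 and low 5 (6.27) came next. The groups did not differ by the test, at 0.25 ± 0.63 (SE, limma adjusted p = 0.881), with a 95% interval from -1.10 to 1.60. Without high 4 the difference was -0.60.

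CYP19A1 was read by 4 probe sets, of which CYP19A1-b varied widely. It was at 2.55, 2.55, 2.70, 7.90 and 2.72 in the high arrays, against 2.51 (lowest), 2.82 (median) and 5.83 (highest) in the low arrays. High 4, low 4 and low 5 (5.51) formed a set apart, and the other 11 arrays lay at or below 2.98. The difference between groups was 0.29 ± 0.88 (SE, limma adjusted p = 0.903), with a 95% interval from -1.59 to 2.16, and -0.77 without high 4. The other CYP19A1 probe sets showed no such set of arrays.

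The level of CYP17A1 followed that of PAG6 (Pearson's r = 0.736, permutation p = 0.00059, adjusted over 17 relations p = 0.010, n = 14; Spearman's rho = 0.727, permutation p = 0.00470, adjusted p = 0.0799). Without high 4 and low 4, the 2 arrays farthest from the PAG6 median, r was 0.586 (permutation p = 0.0447, adjusted p = 0.380), so the call over 14 arrays rests on them. Without high 4 alone the adjusted p was 0.102. Within the 9 low arrays r was 0.938 (exact permutation p = 0.000276, adjusted p = 0.00468) and rho was 0.850 (exact permutation p = 0.00607, adjusted p = 0.0703). The arrays of CYP19A1-b fall into 2 clusters, so no r over all of them is given. Within the 11 arrays of the larger cluster, a single relation computed apart from the 17, r with PAG6 was 0.149 (permutation p = 0.673) and rho was 0.173 (permutation p = 0.614), and without high 1 and low 6, the farthest from their PAG6 median, r was 0.400 (exact permutation p = 0.287). These 11 arrays were set apart by their own low CYP19A1-b levels, at most 2.98 and under the lowest array median of 5.72. Such a choice leaves little variation, so these values cannot decide whether CYP19A1-b followed PAG6. The arrays of the smaller cluster, high 4, low 4 and low 5, were those with the highest PAG6 levels apart from high 1. PAG6 was read here by the brightest of its 3 probe sets. That order also held in the dimmest, with low 5 at 8.54 and low 6 next at 8.21. In the middle probe set low 5 was at 6.59, below low 1 (7.48) and low 7 (7.20). The 4 uterine genes had r with PAG6 between -0.10 and 0.13 over 14 arrays (smallest permutation adjusted p = 0.941) and between -0.49 and 0.48 within the low arrays (smallest exact permutation adjusted p = 0.457).

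**Figure D4:**
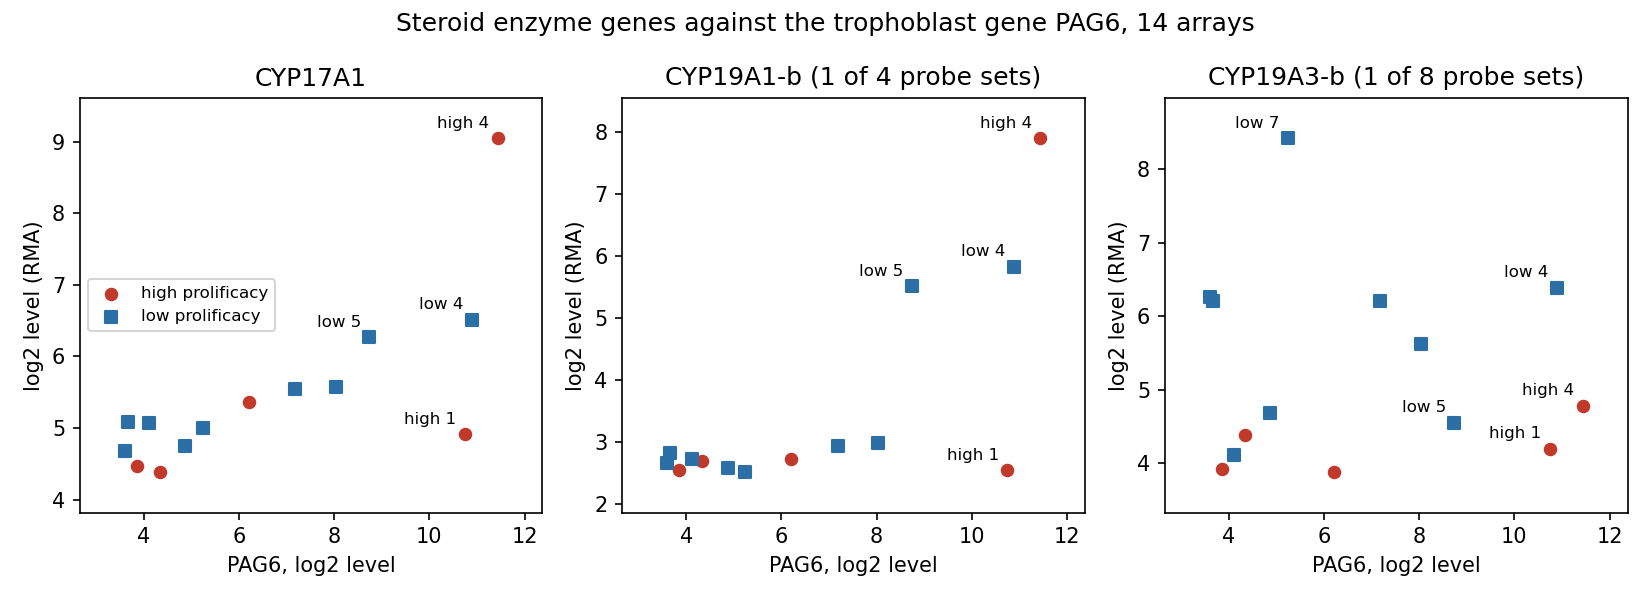
Log2 levels of CYP17A1, of CYP19A1-b and of CYP19A3-b (vertical axes) against the log2 level of PAG6 (horizontal axes) in 14 arrays, high prolificacy as red circles and low prolificacy as blue squares. CYP17A1 and CYP19A1 are highest in high 4, low 4 and low 5, high 1 lies low in spite of a PAG6 level of 10.74, and CYP19A3 is highest in low 7 with a PAG6 level of 5.24.

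A high PAG6 level did not always go with high levels of these 2 genes. CYP19A1-b was at 2.94 in low 1 and 2.98 in low 6, whose PAG6 levels were 7.18 and 8.03, against 5.51 in low 5 with a PAG6 level of 8.74. High 1 stood furthest off. Its PAG6 level of 10.74 was close to the 10.89 of low 4, yet CYP17A1 was at 4.92 in high 1 and 6.51 in low 4, and CYP19A1 was at 2.55 in high 1 and 5.83 in low 4. The earlier steps of the pathway did not show that gap. STAR was at 6.26 in high 1 and 6.09 in low 4, CYP11A1 at 6.88 in high 1 and 7.23 in low 4, and HSD3B1 at 7.02 in high 1 and 7.24 in low 4. High 1 was thus among the arrays rich in PAG6 and in the genes of the steps to progesterone, and not among those rich in the genes of the steps to estrogen. This is a single sow, so the difference has no replicate.

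HSD17B1, which makes estradiol from estrone, stood among the 3 genes most like CYP17A1 (r = 0.946), beside UROD (0.956), of heme synthesis, and CIDEA (0.945), of lipid droplets. Within the low arrays, and so without high 4, r was 0.814 for HSD17B1, 0.777 for UROD and 0.874 for CIDEA. HSD17B1 was at 6.11, 5.18, 5.34, 10.35 and 5.34 in the high arrays, against 5.50 (lowest), 6.27 (median) and 7.44 (highest) in the low arrays. High 4 was again the highest, then low 4 and low 5 (7.00). CYP19A1-b was highest in the same 3 arrays, and since it falls into 2 clusters no likeness is given for it.

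STAR, CYP11A1 and HSD3B1 were likewise not called between groups. CYP11A1 was at 6.88, 3.52, 3.69, 9.85 and 4.55 in the high arrays, against 3.07 (lowest), 3.83 (median) and 7.23 (highest) in the low arrays (difference 1.13 ± 1.00 SE, limma adjusted p = 0.592). STAR differed by 0.80 ± 0.89 (SE, adjusted p = 0.690) and HSD3B1 by 0.82 ± 0.67 (SE, adjusted p = 0.550). In each of the 3 the highest array was high 4. These genes also mark ovarian and adrenal steroid cells. Of the 11 genes of that list on the array none was higher and 1, the luteinizing hormone receptor gene LHCGR, was lower in high prolificacy. Over all genes, 5.34% were called higher and 5.42% lower. List means lay between -0.55 and 0.97 in the high and between -0.46 and 0.54 in the low arrays. The r of CYP17A1 with this list mean was 0.853 over 14 arrays and 0.958 within the low arrays. That mean includes STAR, CYP11A1 and HSD3B1, and no r was computed without these 3. It therefore cannot tell ovarian or adrenal cells from other cells that hold these transcripts. With the trophoblast list mean, the r of CYP17A1 was 0.881 and 0.960. Which cells the CYP17A1 transcript came from was not tested.

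**Figure D5:**
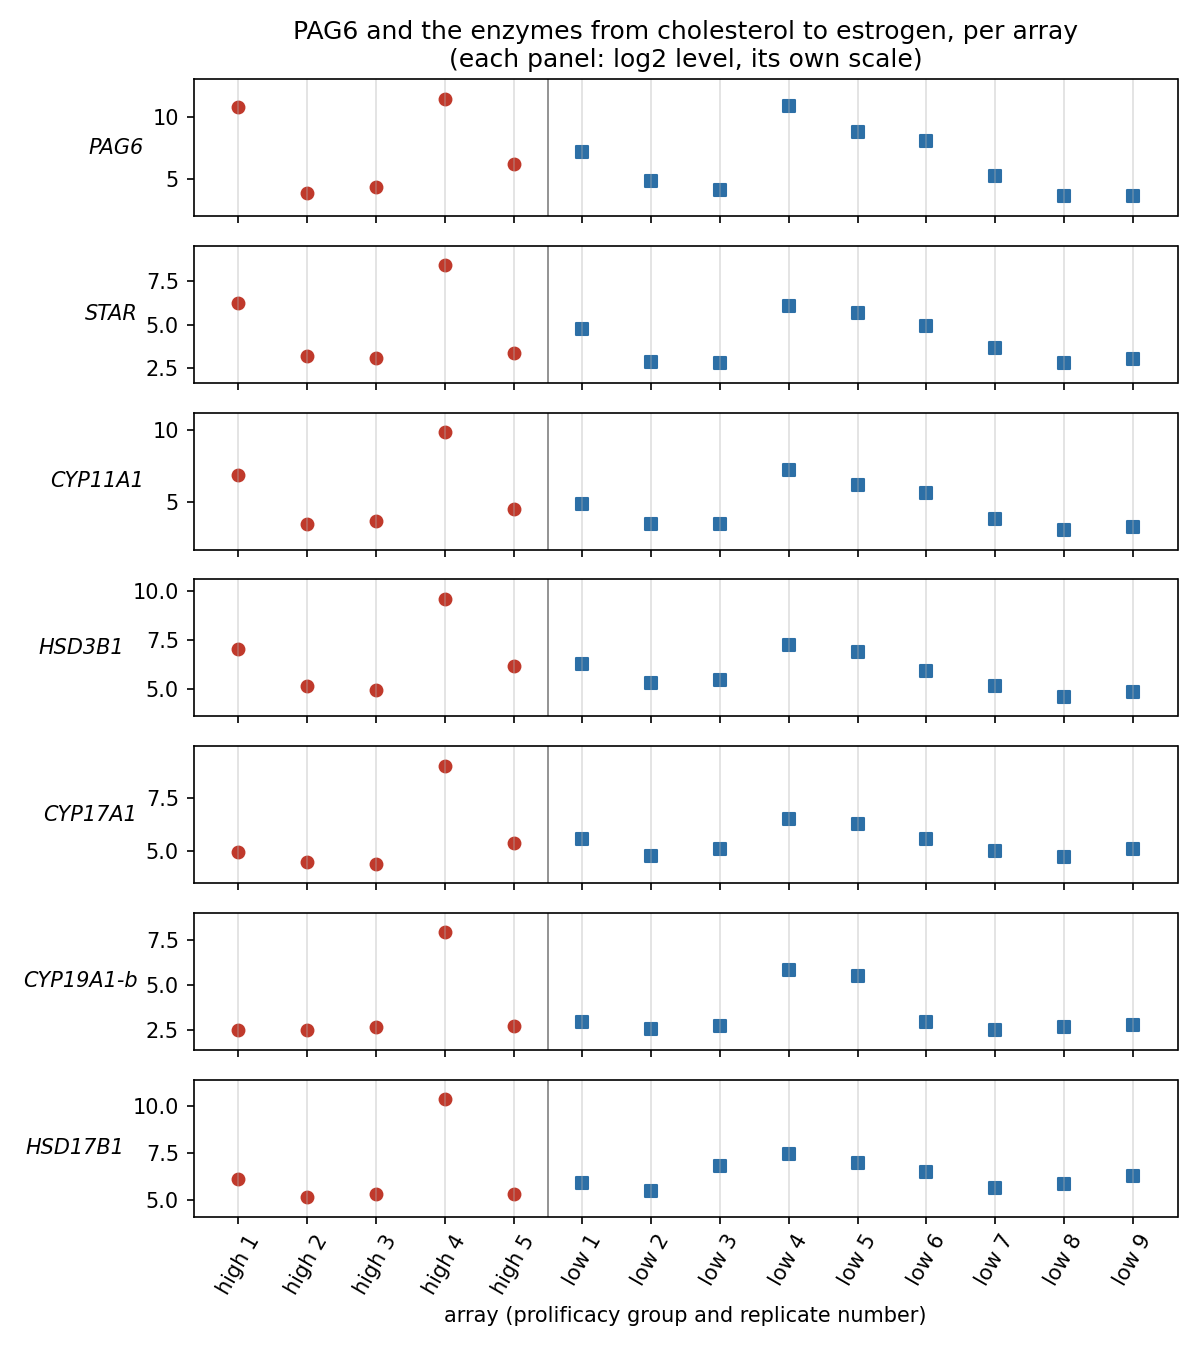
Log2 levels of PAG6 and of STAR, CYP11A1, HSD3B1, CYP17A1, CYP19A1-b and HSD17B1, in the order of the pathway, in each of 5 high (red circles) and 9 low (blue squares) prolificacy arrays, each panel on its own scale. High 4 is the highest array in every panel, low 4 is next for CYP17A1, CYP19A1 and HSD17B1, and high 1 is raised for PAG6, STAR, CYP11A1 and HSD3B1 but not for CYP19A1.

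CYP19A3 was set down as a conceptus gene, and its 8 probe sets differed in how they stood to PAG6. The 2 with the widest spread, CYP19A3-b and CYP19A3-d, moved together (r = 0.862 over 14 arrays) and showed no relation to PAG6 that passed the test (r = -0.05, permutation p = 0.877, and r = 0.07, permutation p = 0.854; both adjusted p = 0.941). CYP19A3-b was at 4.19, 3.91, 4.38, 4.78 and 3.87 in the high arrays, against 4.11 (lowest), 6.20 (median) and 8.43 (highest) in the low arrays. Low 2, low 3 and low 5 lay inside the range of the high arrays, and the other low arrays lay above it. The difference was -1.60 ± 0.55 (SE, limma adjusted p = 0.0956), with a 95% interval from -2.78 to -0.42, and it passed 0.05 only without low 3 (-1.81, adjusted p = 0.0375).

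CYP19A3-d was at 2.89, 2.59, 2.78, 3.31 and 2.86 in the high arrays, against 2.88 (lowest), 3.18 (median) and 6.03 (highest) in the low arrays. Low 7 was the highest array for both probe sets, and it had the lowest epithelium mean and the highest smooth muscle mean of all arrays. The difference of CYP19A3-b was 0.065 with the epithelium mean as a covariate, -0.58 with the smooth muscle mean and -0.49 with both. The genes most like CYP19A3-b, a probe set taken after its values were seen, were FN1 (r = 0.919), which encodes fibronectin, RYR3 (0.899), a calcium release channel, IL17B (0.889) and CAMK2D (0.883), a calmodulin-dependent kinase. The genes most like CYP19A3-d were ZNF385D (0.929), ZCCHC24 (0.902) and the skeletal muscle myosin gene MYH2 (0.899). Low 7 stood far above all other arrays in CYP19A3-d, so these r values, and that with CYP19A3-b, may rest largely on it.

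A probe set that the annotation gives to all 3 aromatase genes, and which is therefore no member, was read as well. It was at 3.94, 3.89, 4.01, 7.02 and 3.77 in the high arrays, against 3.77 (lowest), 4.98 (median) and 7.14 (highest) in the low arrays. Its highest array was low 7, which was highest for CYP19A3-b and low in CYP19A1-b (2.51), then high 4, which was highest for CYP19A1-b. Low 4 came next at 6.39 and was high in CYP19A1-b and CYP19A3-b alike. The aromatase genes are close relatives, and which transcript each probe set binds was not tested. No CYP19A2 probe set with a single symbol was analysed here.

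The other 9 aromatase probe sets, 3 of CYP19A1 and 6 of CYP19A3, varied less. Their differences lay between -0.093 and 0.10 (smallest limma adjusted p = 0.672), and their SD over the 14 arrays between 0.11 and 0.30. All but CYP19A3-a averaged 4.84 or less, under the lowest array median. CYP19A3-a, the brightest for CYP19A3, was at 7.70, 7.63, 7.55, 7.65 and 6.85 in the high arrays, against 7.21 (lowest), 7.58 (median) and 8.05 (highest) in the low arrays. Its r with PAG6 was 0.539 (permutation p = 0.0448, adjusted p = 0.254) over 14 arrays and 0.844 (exact permutation p = 0.00419, adjusted p = 0.0237) within the 9 low arrays, over a range of levels much narrower than that of PAG6. The genes most like it were MRPL35 (0.927), UBE2D2 (0.921) and ALG5 (0.884). The brightest CYP19A1 probe set, CYP19A1-a, was most like BAZ2A (0.894), PTPN1 (0.885) and CHD3 (0.882).

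Around the 7 genes, 4 lists of steroid and cholesterol genes were read, with the brightest probe set standing for a gene. By that measure 5.34% of all 6765 genes were called higher and 5.42% lower, with a median difference of 0.073. Of 32 steroid pathway genes on the array, 4 were higher and none lower (median difference 0.20), namely AKR1C1, HSD17B7 and HSD11B1 and, beside them, FDXR. The 32 include 6 of the members, and every call but that of FDXR was a member's. HSD17B7 is counted again among the cholesterol synthesis genes, and the member SCARB1 among those of uptake and storage. So the list counts partly restate the member calls. FDXR, the reductase that feeds electrons to mitochondrial steroid enzymes, averaged 6.52 ± 0.39 in the high arrays and 5.69 ± 0.20 in the low arrays (SD, n = 5 and n = 9; difference 0.84 ± 0.16 SE, limma adjusted p = 0.00532), and all 3 of its probe sets were called higher.

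Of the steroid pathway genes that were not called, TSPO, a mitochondrial outer membrane protein, differed by 0.95 ± 0.39 (SE, limma adjusted p = 0.169), and FDX1, the ferredoxin partner of FDXR, by 0.59 ± 0.26 (SE, adjusted p = 0.208). HSD17B2, which inactivates estradiol, was at 10.69, 9.98, 10.02, 11.33 and 10.81 in the high arrays, against 4.59 (lowest), 7.67 (median) and 11.80 (highest) in the low arrays. Low 3, low 6, low 7 and low 9 were below 5, and the other low arrays at 7.67 or above. The difference was 2.97 ± 1.23 (SE, adjusted p = 0.175). HSD11B2, which inactivates glucocorticoid and so opposes HSD11B1, was at 7.45, 7.11, 7.31, 10.27 and 8.52 in the high arrays, against 6.33 (lowest), 7.03 (median) and 8.66 (highest) in the low arrays (difference 1.03 ± 0.50 SE, adjusted p = 0.253). Its 2 highest arrays were high 4 and low 4.

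Of 14 cholesterol synthesis genes, 3 were higher and none lower (median difference 0.41). These were HSD17B7, the acetyl-CoA acetyltransferase gene ACAT2 (1.16 ± 0.31 SE, limma adjusted p = 0.0341) and SREBF2, the transcription factor that drives the pathway (0.68 ± 0.19 SE, adjusted p = 0.0370, with 1 of its 4 probe sets called). The call of ACAT2 was lost without any high array other than high 1 and without low 6, low 7, low 8 or low 9 (8 of 14 fits), and that of SREBF2 without the same arrays, low 1 or low 2 (10 of 14). NSDHL (0.43, adjusted p = 0.106), TM7SF2 (-0.93, adjusted p = 0.166), FDFT1 (0.32, adjusted p = 0.340) and SCAP (0.26, adjusted p = 0.367) were not called.

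Of 12 cholesterol uptake and storage genes, 3 were higher and 1 lower (median difference 0.11). Beside SCARB1, the higher ones were ABCA1, which exports cholesterol (2.10 ± 0.53 SE, limma adjusted p = 0.0259, not called without high 2, high 3 or high 5), and SLC9A3R1, a scaffold protein (1.29 ± 0.27 SE, adjusted p = 0.00966). VLDLR, a receptor for triglyceride-rich lipoprotein, fell, and averaged 7.65 ± 0.98 in the high arrays and 9.55 ± 0.38 in the low arrays (SD, n = 5 and n = 9; -1.90 ± 0.33 SE, limma adjusted p = 0.00378). So the 2 lipoprotein receptor genes SCARB1 and VLDLR were called in opposite directions. NPC2, of lysosomal cholesterol release (-0.64, limma adjusted p = 0.0999), the apolipoprotein gene APOA1 (-0.53, adjusted p = 0.519) and the lipase genes LIPE (0.21, adjusted p = 0.544) and LIPA (0.29, adjusted p = 0.734) were not called.

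Of 7 steroid receptor and cofactor genes, none was higher and 1 was lower (median difference 0.14). It was the progesterone receptor PGR, which averaged 6.21 ± 0.32 in the high arrays and 7.04 ± 0.51 in the low arrays (SD, n = 5 and n = 9), and its call (limma adjusted p = 0.0465) was lost without any of the high arrays and without low 1, low 6, low 7 or low 9 (9 of 14 fits). ESR1 (0.67, adjusted p = 0.399), NR3C1, the glucocorticoid receptor (0.22, adjusted p = 0.572), and the chaperones FKBP4 (0.58, adjusted p = 0.223) and FKBP5 (-0.70, adjusted p = 0.407) were not called.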

How the data were processed

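The deposited table holds 24123 probe sets on 14 arrays as log2 levels, which the authors summarised by RMA (named in the submitters' processing notes). Its software and settings are not stated in the labels or files. The method equalises intensity distributions between arrays, and array medians lay between 5.72 and 5.84. After 124 Affymetrix controls were left out, 23999 probe sets were tested. The platform annotation gave 1 gene symbol to 10069 of them, several to 198 and none to 13732. Gene numbers of all 7 members were found under the same symbols in the RefSeq genes of Sscrofa11.1. No sequences or coordinates were used.

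High minus low prolificacy was fitted in R 4.3.3 by limma 3.58.1 (lmFit, then eBayes; two-sided, no covariate), with Benjamini-Hochberg adjustment across all 23999 probe sets, and tested on simulated data. Relations to PAG6 (the brightest of its 3 probe sets) used 100000 permutations over 14 arrays, and every permutation over 9. Marker lists numbered 9 and pathway lists 4. The members and lists were chosen with earlier results of these data known. Named were all members, PAG6, pathway genes called and up to 4 more per list by p, and the 3 genes most like each member's brightest probe set, while probe sets and genes beyond that rule were taken after their values were seen. Stromal (1 of 9 genes higher, 4 lower), endothelial (1 of 8 higher, 1 lower), macrophage (0 of 6) and gland markers (4 of 9 higher, 0 lower) were read too. Over all genes, the shares were 5.34% higher and 5.42% lower. The number of arrays limits the precision.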

Additional observations from a re-analysis of the deposited data

Results flagged for a closer look

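In the 34 groups of arrays looked at (17 probe sets in 2 groups), 4 values stood further from the rest of their group than a Dixon test at 95% allows, where chance alone gives about 1 in 20 groups. CYP17A1 in high 4 was at 9.05, and the other high arrays lay between 4.38 and 5.37. CYP19A1-b in high 4 was at 7.90, with the other high arrays between 2.55 and 2.72. High 4 also had the highest trophoblast list mean (2.47) and fetal plasma protein list mean (3.46) of all 14 arrays, and the part of these in the 2 values was not tested. CYP19A3-d in low 7 was at 6.03, with the other low arrays between 2.88 and 3.93. CYP19A3-a in high 5 was at 6.85, with the other high arrays between 7.55 and 7.70.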

How the results depend on the processing

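The 4 higher calls among the 17 probe sets were also made with cyclic loess, with array medians subtracted, with trend and robust settings, with array weights, with PAG6 as a covariate and without high 1, high 4 and low 4 together, and 3 were made among the 12000 brightest probe sets, where AKR1C1 was not tested. There were 0 with the smooth muscle mean, the epithelium mean or both as covariates, 2 without low 7 and low 9, and 2 to 4 in the fits that each dropped an array. The lower calls numbered 1 at an adjusted p of 0.10 and between 0 and 1 without an array. Of the 64 genes of the 4 lists, 9 were higher and 2 lower. The 64 include the 7 members, and the 4 higher member calls are among the 9. The higher were 0 with each of the 3 covariate settings, 4 without low 7 and low 9 and between 4 and 10 without an array. The lower were 1 with array medians subtracted, with trend and robust settings and without low 7 and low 9, 0 with the covariates, and between 1 and 2 without an array. The fits with the smooth muscle mean alone, the epithelium mean alone, without low 7 and low 9, and without high 1, high 4 and low 4 were chosen after seeing the data. The shared replicate numbers did not pair the arrays (correlations of same-numbered arrays between -0.247 and 0.421); with the number as a replicate block 0 of the 4 member calls, 0 of the 9 higher and 0 of the 2 lower list calls were made. The correlation of CYP17A1 with PAG6 missed the threshold as Spearman's rho (0.727) and without the 2 farthest arrays (0.586), and lay between 0.717 and 0.876 when 1 array was left out.

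Some directions changed. CYP17A1 differed by -0.17 with array weights, -0.076 with PAG6 as a covariate, -0.50 without high 1, high 4 and low 4, and between -0.60 and 0.57 without an array. For CYP19A1-b these values were -0.14, -0.16, -0.44 and between -0.77 and 0.59, and with the replicate block, both covariates and smooth muscle alone they were -0.23, -0.59 and -0.59. CYP19A3-b was at 0.065 with the epithelium mean, and CYP19A3-d at 0.27, 0.48 and 0.21 with both means, epithelium and smooth muscle. The correlation of CYP19A3-b with PAG6 was 0.055 by Spearman's rho and between -0.175 and 0.0705 without an array. With both means and with smooth muscle alone, HSD11B1 differed by -0.88 and -0.87, SREBF2 by -0.35 and -0.35, and VLDLR by 0.15 and 0.14. The causes were not tested.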
